A study of Mus musculus with 27 samples.

Results

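The matrix metalloproteases (MMPs), the ADAMTS proteases and their tissue inhibitors (TIMPs) were followed through the differentiation of mouse embryonic stem cells (ESCs) to blood, with and without a block of AP-1. The genes were chosen by symbol (Mmp, Adamts or Timp followed by a number) through the RefSeq accession of each probe, with 1 probe per gene. They numbered 43 of the 37208 genes or transcripts on the array, namely 20 MMP, 19 ADAMTS and 4 TIMP genes. A gene with 2 probes, as had 14 of the 43, was represented by the probe with the higher mean.

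Each of 27 samples was hybridized to 1 one-colour mouse array. All samples came from dnFOS ESCs, a line raised from picked clones of transfected A2lox cells that carries, at the Hprt locus, a Flag-tagged dominant-negative FOS peptide switched on by doxycycline (DOX). The untreated controls therefore held the same cassette, and no cells without it were given DOX on these arrays. FLK1+ cells, which contain the hemangioblast, were sorted from embryoid bodies at 3.75 days and formed 1 untreated group. The other 12 groups were 6 populations without DOX and with DOX at 1 µg/ml. They were complete blast cultures after 5 h and after 24 h (d1 BC), and 4 populations sorted from blast cultures with 2 days of DOX or none: smooth muscle (SM) cells, HE1 cells (KIT+TIE2+CD41-), HE2 cells (KIT+TIE2+CD41+) and hematopoietic progenitors (HP, KIT+TIE2-CD41+). HE stands for hemogenic endothelium. Untreated SM cells had 3 arrays and all other groups 2. The labels do not say that replicates came from separate cultures, so p-values measure the spread between these arrays. The complete cultures hold several cell types, and in all these bulk samples fewer cells of a type and less RNA per cell cannot be told apart.

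MMPs are zinc proteases that cut collagens, basement membrane and many surface proteins. Most are secreted as inactive proenzymes and some are anchored in the membrane. ADAMTS proteases are secreted too and bind the matrix, where they cut proteoglycans such as versican and aggrecan, trim procollagens or, in the case of ADAMTS13, cut von Willebrand factor. TIMPs bind the active site of MMPs, and TIMP3 inhibits several ADAMTS proteases as well. AP-1, a dimer of FOS and JUN proteins, is a textbook regulator of collagenase and stromelysin genes, whose promoters hold an AP-1 element close to the start of transcription. The dnFOS peptide pairs with JUN proteins and keeps them off DNA.

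The promoters of the genes with such an element are shown here because dnFOS acts on AP-1. RefSeq windows of 300 bases, from 250 before to 50 after the start, were at hand for 29 of the 43 genes (32 windows, build GRCm38.p6). The 14 without a window, which were not searched, were Mmp2, Mmp9, Mmp16, Mmp17, Mmp19, Adamts4, Adamts5, Adamts6, Adamts7, Adamts8, Adamts10, Adamts15, Adamts16 and Adamts19. The AP-1 motif TGANTCA, which reads the same on both strands, was in 6 of the 32 windows, each of a different gene: Mmp3, Mmp7, Mmp10, Mmp12, Mmp13 and Mmp20. It was in 7.81% of all 32851 windows. The 6 genes lie together on chromosome 9, where 7 of the genes followed (with Mmp8) span 7272514 to 7699585. The 100 bases before the start follow for 5 of them, 5′ to 3′ on the strand of the gene, with the motif in capitals. It begins 35 bases before the start in Mmp13, 46 in Mmp3, 63 in Mmp10 and in Mmp7, and 95 in Mmp20. For Mmp12 the match stood 44 bases before the second of 2 starts.
Mmp13, chr9:7272414-7272513, + strand: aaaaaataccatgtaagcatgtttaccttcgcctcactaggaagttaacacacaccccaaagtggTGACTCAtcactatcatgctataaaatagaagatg
Mmp3, chr9:7445722-7445821, + strand: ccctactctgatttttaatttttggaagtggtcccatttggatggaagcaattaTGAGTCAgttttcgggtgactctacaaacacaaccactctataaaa
Mmp10, chr9:7502242-7502341, + strand: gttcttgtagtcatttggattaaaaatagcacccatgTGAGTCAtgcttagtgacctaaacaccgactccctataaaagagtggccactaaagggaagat
Mmp7, chr9:7691990-7692089, + strand: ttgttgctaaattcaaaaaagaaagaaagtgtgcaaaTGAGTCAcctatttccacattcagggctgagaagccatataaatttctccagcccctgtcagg
Mmp20, chr9:7628131-7628230, + strand: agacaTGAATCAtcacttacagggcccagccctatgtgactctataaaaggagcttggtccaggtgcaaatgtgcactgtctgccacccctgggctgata
The TATAAA box was in 8 of the 29 genes, the 6 above with Adamts1 and Mmp21, and in 8.32% of all windows. It did not overlap the AP-1 motif. GGAATG, the motif of TEAD factors, on either strand, was in the windows of Adamts13 and Timp1 and in 14.7% of all windows.

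Of these 6 genes, 4 (Mmp3, Mmp10, Mmp13 and Mmp20) were above background on at most 2 of the 27 arrays and never on all arrays of a group, so no effect of DOX on them could be measured. Mmp7, the matrilysin, and Mmp12, the macrophage elastase, were close to it, and Mmp7 read −2.78 or less on every untreated array. Mmp12 was above background on both arrays in untreated HE2 cells, at −2.38 and −3.52, and on 1 of 2 arrays with DOX, at −4.78 and −3.65. These values, like all levels below, are log2 signals relative to the 75th percentile of the array, and a level is compared only with levels of the same gene. The fitted difference of −1.27 (SE 1.07) in Mmp12 had an adjusted p of 0.581. In HP cells, where Mmp12 was above background on all 4 arrays, it was 0.68 (SE 1.07), the other way. Mmp7 was tested in 5 populations, with differences of −0.52 in SM cells to 1.41 at 5 h (SE 0.77 to 0.84) and no call. In d1 BC, where all 4 arrays were above background, it read −4.22 and −3.98 without and −4.55 and −4.22 with DOX (−0.29).

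A second set of promoters is that of 4 of the 6 genes called lower from HE1 to HE2 cells, as described below. Of the other 2, Adamts4 had no window, and that of Adamts17, with 17 CG dinucleotides and no TGANTCA, is not printed. The 4 genes lie at chr11:118301061-118355411 (Timp2), chrX:20870166-20874737 (Timp1), chr10:75923221-75932502 (Mmp11) and chr16:85793827-85803113 (Adamts1), and the stretches end 1 base before the annotated start. Here capitals mark CG dinucleotides, of which the median window of all genes held 7. The full windows held 25 in Timp2, 8 in Timp1, 19 in Mmp11 and 18 in Adamts1, and none held TGANTCA. Windows of genes not called at that step ranged as widely, with 44 in Adamts14 and Mmp24, 25 in Adamts9, 24 in Timp3, 10 in Mmp14 and 2 in Timp4.
Timp2, chr11:118355412-118355511, − strand: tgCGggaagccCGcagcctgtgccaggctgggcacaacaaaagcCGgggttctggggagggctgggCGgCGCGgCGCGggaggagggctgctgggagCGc
Timp1, chrX:20870066-20870165, + strand: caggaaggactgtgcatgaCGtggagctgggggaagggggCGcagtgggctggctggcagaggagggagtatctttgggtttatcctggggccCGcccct
Mmp11, chr10:75932503-75932602, − strand: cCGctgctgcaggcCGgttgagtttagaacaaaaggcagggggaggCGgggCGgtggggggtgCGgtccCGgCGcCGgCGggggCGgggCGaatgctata
Adamts1, chr16:85803114-85803213, − strand: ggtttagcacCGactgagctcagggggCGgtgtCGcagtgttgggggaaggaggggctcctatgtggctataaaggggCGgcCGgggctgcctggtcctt

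The 75th percentile of the signal, which limits the precision at low levels, ranged from 78.8 to 732 over the arrays. The lowest was untreated HE2 replicate 1, where 16 of the 43 genes were above background. Between 48.0% and 89.7% of probes were above background, the highest share being on untreated SM replicate 2, where 41 of the 43 genes were. Signal from Hprt, at whose locus the cassette sits, was higher on every DOX array than on every untreated array of its population, by 2.65-fold at 5 h to 12.3-fold in d1 BC. All 6 endothelial markers were above background in every group but FLK1+ cells, and 5 or 6 of 6 hematopoietic progenitor markers in every group, so these counts do not tell the populations apart. In multiples of the 75th percentile, endothelial markers summed to 91.0 to 181 on untreated HE1 arrays, 81.4 to 109 in HE2, 47.3 to 57.2 in HP and at most 73.5 in SM cells, and smooth muscle markers to 965 to 2027 in SM cells.

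Of the 43 genes, 35 were above background on all arrays of 1 or more groups and 10 on all 27 arrays. These 10 were Timp2, Timp3, Mmp2, Mmp14, Mmp17, Mmp23, Adamts1, Adamts9, Adamts10 and Adamts14. The 8 genes that reached this level in no group were Mmp3, Mmp8, Mmp10, Mmp13, Mmp16, Mmp20, Mmp21 and Adamts20. Among them, the neutrophil collagenase Mmp8 was above background on 2 arrays, and Mmp20, the enamel protease, on none. The number detected was lowest in untreated HE2 cells, with 16 of 43 (37.2%, against 56.6% of all genes). That count rests on replicate 1, since 31 of the 43 were above background on HE2 replicate 2 and 16 on replicate 1. It was highest in untreated SM cells, with 27 of 43 (62.8%, against 58.7%).

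**Figure D1:**
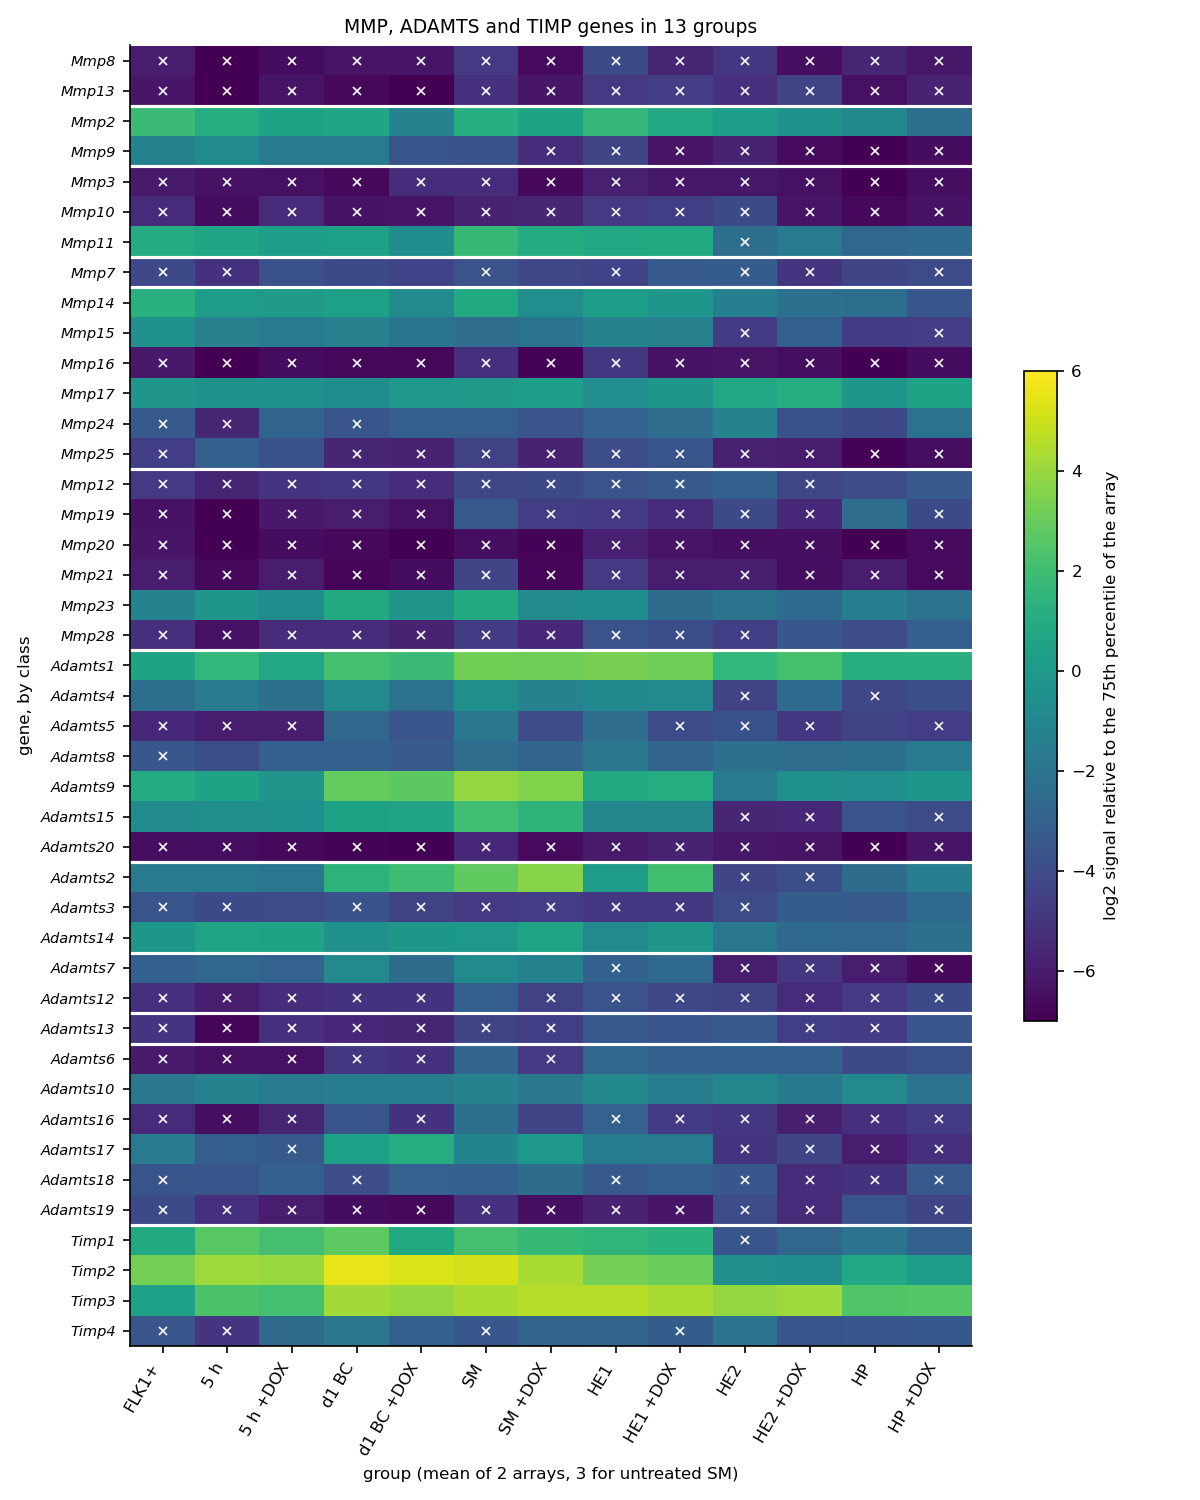
Mean log2 signal relative to the 75th percentile of the array (colour) of the MMP, ADAMTS and TIMP genes (rows, by class) in 13 groups (columns, means of 2 arrays, 3 for untreated SM cells). Timp1, Timp2 and several ADAMTS genes were high in SM and HE1 cells and lower in HE2 and HP cells, and 8 genes were above background on all arrays of no group.

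Across the 7 untreated populations the levels of 19 of the 35 genes differed by limma's F test at an adjusted p under 0.05. Among all 27457 genes tested this share was 19.2%. The 19 were 3 of 4 TIMPs, 11 of 18 ADAMTS and 5 of 13 MMP genes tested. A gene enters this test through a population where it is measurable, so the count describes these genes and supports nothing further. The smallest adjusted p was 5.38e-07, for Timp2, followed by Mmp9 (3.16e-06) and Mmp11 (8.18e-06). Mmp14, Mmp2 and Mmp17 were among the 16 genes not called. The population with the highest mean was SM for 10 of the 35 genes (7.56% of all genes), 9 of them ADAMTS genes and the other Mmp11. In only 2 of these 10, Adamts9 and Adamts12, were all SM arrays above all arrays of the next population (14% of all genes highest in SM).

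Among the inhibitors, Timp2, which also takes part in the activation of pro-MMP2, was highest in d1 BC. It read 3.32 and 3.30 in FLK1+ cells, 4.22 and 3.95 at 5 h, 5.56 and 5.44 in d1 BC, and 4.83, 5.37 and 5.23 in SM cells. It read 4.05 and 2.55 in HE1, −0.67 and −0.36 in HE2, and 0.22 and 1.36 in HP cells. The d1 BC arrays were thus above all others, and both HE2 arrays were below all others. SM and 5 h arrays did not overlap either, while the FLK1+ levels lay between the 2 HE1 arrays.

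Timp1, an inhibitor of many secreted MMPs, read 0.95 and 0.86 in FLK1+ cells, 3.06 and 2.19 at 5 h, 3.15 and 2.38 in d1 BC, and 2.81, 2.75 and 0.93 in SM cells. The HE1 arrays gave 0.82 and 2.14, the HE2 arrays −4.81 and −2.29, and the HP arrays −3.20 and −0.79. The first 5 populations thus stood above HE2 and HP cells on every array, and d1 BC, 5 h and SM arrays overlapped among themselves (F test adjusted p = 0.000120).

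Timp3, which stays bound to the matrix, had another order. It read 0.24 and 0.66 in FLK1+ cells, 2.39 and 2.37 at 5 h and 4.14 and 4.23 in d1 BC, with no overlap between these 3 groups. It read 3.40, 5.68 and 3.98 in SM and 4.97 and 4.20 in HE1 cells. HE2 cells, at 3.83 and 3.98, were close to HE1 cells, and HP cells, at 2.36 and 2.57, were lower. Timp4 was low, at −0.68 or less on each untreated array, and was not called.

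Of the gelatinases, Mmp9 was highest in the early populations. Its levels were −1.09 and −1.45 in FLK1+ cells, −0.62 and −0.84 at 5 h, −1.55 and −1.64 in d1 BC, and −3.83, −4.23 and −3.14 in SM cells. In HE1 cells both arrays (−4.24 and −4.29) were not well above background, and the HE2 and HP arrays read −4.96 or less. Mmp2 was measurable on every array but scattered, from 2.58 to −1.05 among the 3 SM arrays, and was not called. Mmp14, the membrane protease that activates pro-MMP2, scattered with it, at 1.58, −0.76 and 1.92 in SM cells. In both genes SM replicate 2 was the low array.

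Mmp11 (stromelysin 3) read 1.93, 0.79 and 2.45 in SM cells, 1.13 and 0.86 in FLK1+ and 1.26 and 0.20 in HE1 cells, and −2.34 or less in HP cells. Mmp15, a second membrane-bound MMP, was highest in FLK1+ cells (−0.40 and −0.46) and low in HE2 (−4.97 and −4.40) and HP cells (−4.26 and −5.16). Mmp17, which is held in the membrane by a lipid anchor, went the other way: HE2 cells, at 1.00 and 0.51, were above every other untreated array, whose range was −0.75 to 0.27. Mmp17 was not called in the F test. Mmp19, at −2.17 and −2.52 in HP cells, was above all other untreated arrays and read −5.36 or less on all FLK1+, 5 h and d1 BC arrays (F test adjusted p = 0.000189).

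Among the proteoglycan-cleaving ADAMTS genes, Adamts1 was highest in HE1 and SM cells. It read 0.57 and 0.50 in FLK1+ cells, 1.95 and 1.28 at 5 h, 1.85 and 2.46 in d1 BC, and 3.07, 3.47 and 3.04 in SM cells. The arrays gave 3.75 and 2.97 in HE1, 1.57 and 1.60 in HE2 and 1.13 and 1.26 in HP cells. HE1 and SM arrays overlapped, and both lay above all other populations. Adamts9 was highest in SM cells, at 3.67, 3.39 and 4.61, followed by d1 BC at 2.79 and 3.06, and lowest in HE2 cells at −1.30 and −2.07. Adamts5 went from −5.68 and −6.19 at 5 h, below background, to −2.10, −1.82 and −1.54 in SM cells. Adamts15 read 3.03 and 2.96 on 2 SM arrays and −0.02 on SM replicate 2, and −4.76 and −6.48 in HE2 cells.

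Of the procollagen N-propeptidases, Adamts2 reached 3.65, 0.76 and 4.02 in SM cells against −3.02 and −5.60 in HE2 cells, and its HE1 arrays lay far apart at 2.44 and −2.16. Adamts14 read 1.06 and 0.15 at 5 h and −3.63 and −1.73 in HP cells. Both were called in the F test. Adamts3 was not. Of the enzymes that cut the cartilage protein COMP, Adamts7 was highest in SM cells and d1 BC, where it ranged from −0.24 to −1.48 over the 5 arrays. It was −4.93 or less in HE2 and HP cells (F test adjusted p = 0.000576). Adamts13 was near background, −2.19 or less on all untreated arrays.

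**Figure D2:**
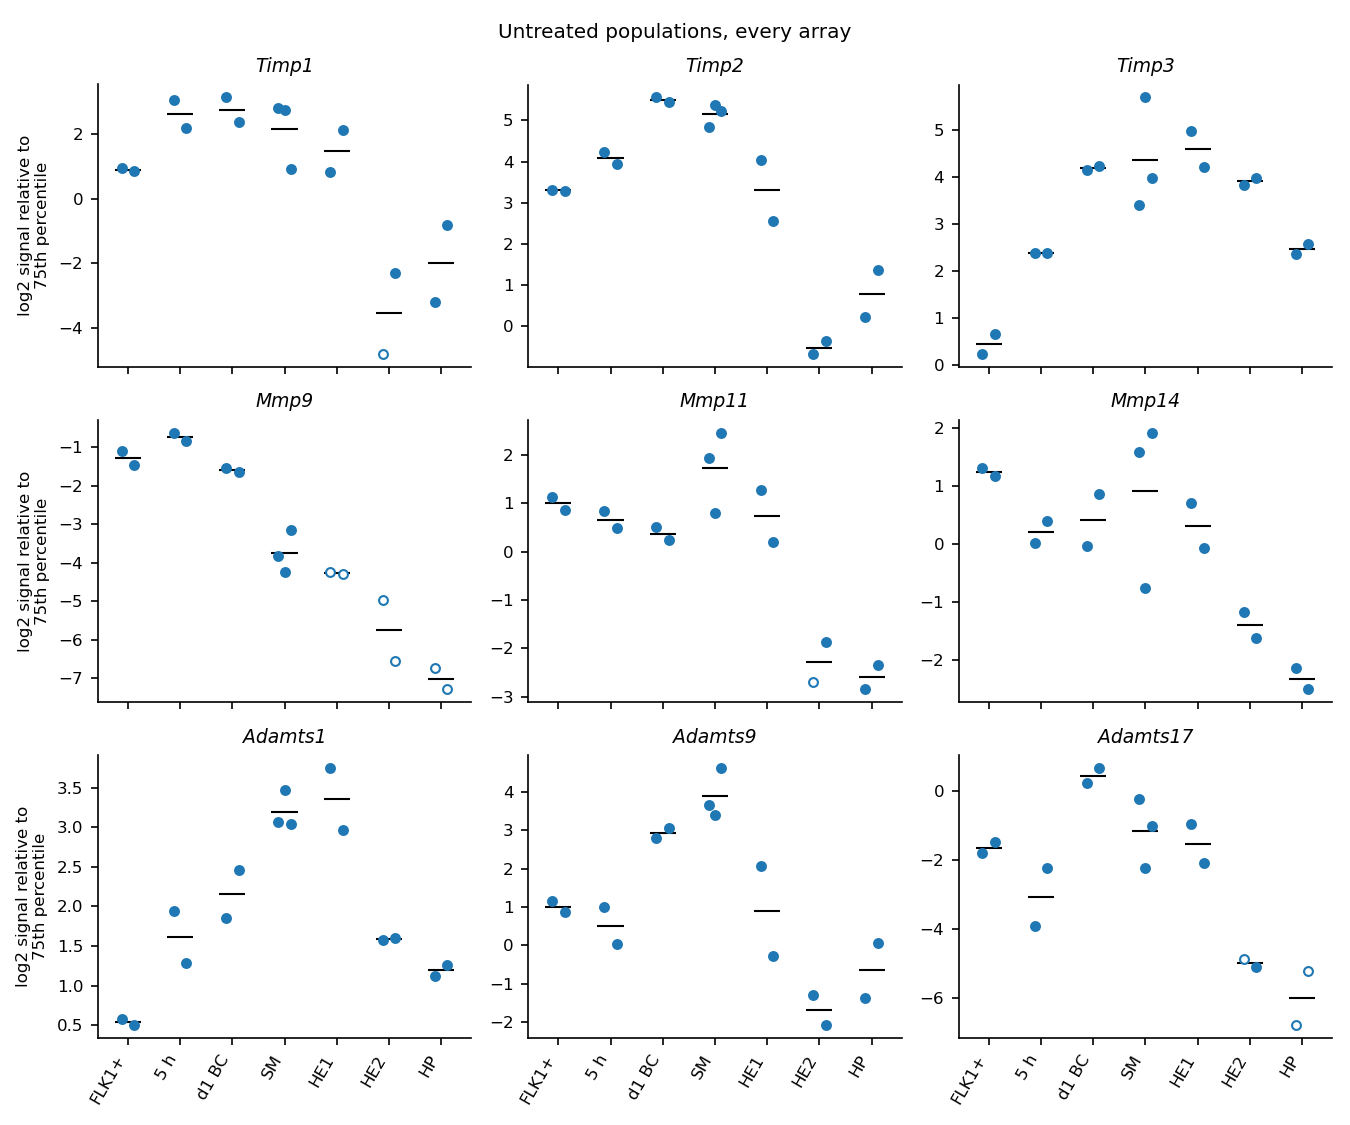
Log2 signal relative to the 75th percentile (y axis) on each untreated array (points) of 7 populations (x axis), for genes of the MMP, ADAMTS and TIMP families. In Timp2 and Adamts1 both HE2 arrays lay below both HE1 arrays, while SM replicate 2 stood apart from the other 2 SM arrays in Mmp14, at −0.76 against 1.58 and 1.92.

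The steps between untreated populations were then compared. A gene entered a step if either population had it above background on every array. A call needed a 2-fold change and an adjusted p under 0.05.

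From FLK1+ cells to 5 h of blast culture, limma called 0 of the 22 genes tested (3.28% of all genes tested were called). At an unadjusted p under 0.05, 2 of the 22 passed, Timp3 and Adamts1, both higher (10% of all genes). Timp3 was higher by 1.93 (SE 0.70, adjusted p = 0.164) and Adamts1 by 1.08 (SE 0.41). Timp1 was higher by 1.72 (SE 0.92) and Mmp14 lower, at −1.03 (SE 1.06). Of the companion genes of the pathway, listed from general knowledge, the urokinase receptor Plaur rose by 4.90 (SE 0.60, adjusted p = 0.000211).

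From 5 h to d1 BC, Adamts17 rose from −3.90 and −2.24 to 0.23 and 0.66. This was the 1 call among 26 genes tested (log2 fold change 3.51, SE 0.87, adjusted p = 0.0462, against 1.72% of all genes called). The call was lost without d1 BC replicate 1, without d1 BC replicate 2 and without 5 h replicate 1. A second probe for Adamts17 gave 2.90 and an adjusted p of 0.139. Adamts5 was at least 7.04-fold higher in d1 BC, since it was not above background at 5 h (adjusted p = 0.0669). Adamts9 was higher by 2.41, Timp3 by 1.80 and Timp2 by 1.41, with adjusted p-values of 0.122 to 0.296. In 12 of the 26 genes both d1 BC arrays lay above both 5 h arrays, as in 21.7% of all genes, and in 4 they lay below (24%). Among the 20 genes above background on all arrays of both groups, 9 lay above (21%) and 3 below (22.5%). From d1 BC to SM cells 0 of 29 genes were called (0.273% of all genes). The smallest adjusted p among them was 0.132, and Adamts1 was higher by 1.04 and Mmp9 lower, at −2.14.

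From d1 BC to HE1 cells, 2 of 27 genes tested fell (3.59% of all genes were called). These groups had no slide in common, and with the slide as a block 0 genes were called. Timp2 fell by 2.20 on the log2 scale (SE 0.52, adjusted p = 0.0236). Mmp9 fell to a level not well above background, at least 5.02-fold lower (adjusted p = 0.0258). The Mmp9 call was lost without each of the 4 arrays in turn (adjusted p = 0.0975 to 0.183 by limma), and Timp2 kept its call in 1 of these 4 settings, without HE1 replicate 1. Between SM and HE1 cells, Adamts9 was the 1 gene called of 29 (0.808% of all genes). It fell by 3.00 (SE 0.66, adjusted p = 0.0410), at 2.07 and −0.27. The call was lost without HE1 replicate 2, without SM replicate 1 and without SM replicate 3. It was also lost in 5 of 10 other settings of the processing or the model. The summed level of the smooth muscle markers was 1176 to 1775 in d1 BC, 965 to 2027 in SM and 256 to 578 in HE1 cells, and that of the mesothelial markers 61.7 to 64.7, 23.1 to 57.0 and 3.91 to 8.55. Their part in these falls was not tested.

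The step from HE1 to HE2 cells, at which CD41 appears on the surface, held the most calls of the 7 steps. The inhibitor genes Timp1 and Timp2 fell, with the stromelysin Mmp11 and the proteases Adamts1, Adamts4 and Adamts17. These 6 of 24 genes tested were called lower and 0 higher, against 2.67% of all genes called in either direction. Timp1 fell 32.7-fold (log2 fold change −5.03, SE 0.92, adjusted p = 0.00464) and Timp2 14.1-fold (−3.82, SE 0.52, adjusted p = 0.000676). Adamts17 fell by 3.46 (SE 0.87), Adamts4 by 3.41 (SE 0.69), Mmp11 by 3.02 (SE 0.51) and Adamts1 by 1.77 (SE 0.41), with adjusted p-values of 0.0375, 0.00968, 0.00299 and 0.0211.

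On single arrays, Adamts4 went from −0.23 and −1.66 to −4.88 and −3.83, and Adamts17 from −0.96 and −2.08 to −4.87 and −5.09. Mmp11 went from 1.26 and 0.20 to −2.70 and −1.87. In HE2 cells Timp1, Mmp11, Adamts4 and Adamts17 were above background on 1 of the 2 arrays, so the size of these 4 falls is uncertain. Timp2 and Adamts1 were above background on all 4 arrays. Second probes gave −3.19 (adjusted p = 0.0143) for Timp2, −2.45 (0.107) for Mmp11 and −1.25 (0.858) for Adamts17.

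The HE1 and HE2 replicates of the same number lay on the same slide. With the slide of replicate 1 given first, the differences within slides were −5.63 and −4.43 for Timp1, −4.72 and −2.91 for Timp2, and −3.97 and −2.07 for Mmp11. They were −4.64 and −2.17 for Adamts4, −3.91 and −3.01 for Adamts17, and −2.18 and −1.37 for Adamts1. All 6 genes were thus lower in HE2 cells on both slides, and each difference was the larger in replicate 1. With the slide as a block, 11 genes were called, 10 lower and Mmp17 higher. The share of all genes called with this block is not given, so that count has no comparison. With median scaling 2 genes were called, Timp1 and Timp2, and with the 2 groups alone 0. Without HE2 replicate 1, the array with the lowest signal, 1 gene was called, Timp2, and without HE1 replicate 1 there were 3, Timp1, Timp2 and Adamts16. The Adamts17 call was lost without each of the 4 arrays in turn (adjusted p = 0.0774 to 0.308 by limma). Of these 4 settings, Adamts1 kept its call in 1, and Timp1, Adamts4 and Mmp11 kept theirs in 2.

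Over the 24 genes the median log2 fold change was −1.37, and that of all genes tested was 0.04. In 16 of the 24 both HE2 arrays lay below both HE1 arrays (16.1% of all genes), and in 1, Mmp17, above (16%). A gene that is low in HE2 cells entered only through HE1 cells. Among the 15 genes above background in both populations the median was −0.68 (0.07 for all such genes), and 2 were called, Timp2 and Adamts1. In 8 of these 15 both HE2 arrays lay below both HE1 arrays (12.8% of all such genes), and in 1 above (17%). The share of all such genes called is not given, so the 2 calls have no comparison. Timp3, at −0.68, and Mmp2, at −1.39 (SE 1.31), were not called. Nor were Adamts9 (−2.58, adjusted p = 0.0654), Mmp14 (−1.71) and Adamts5 (−1.34).

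**Figure D3:**
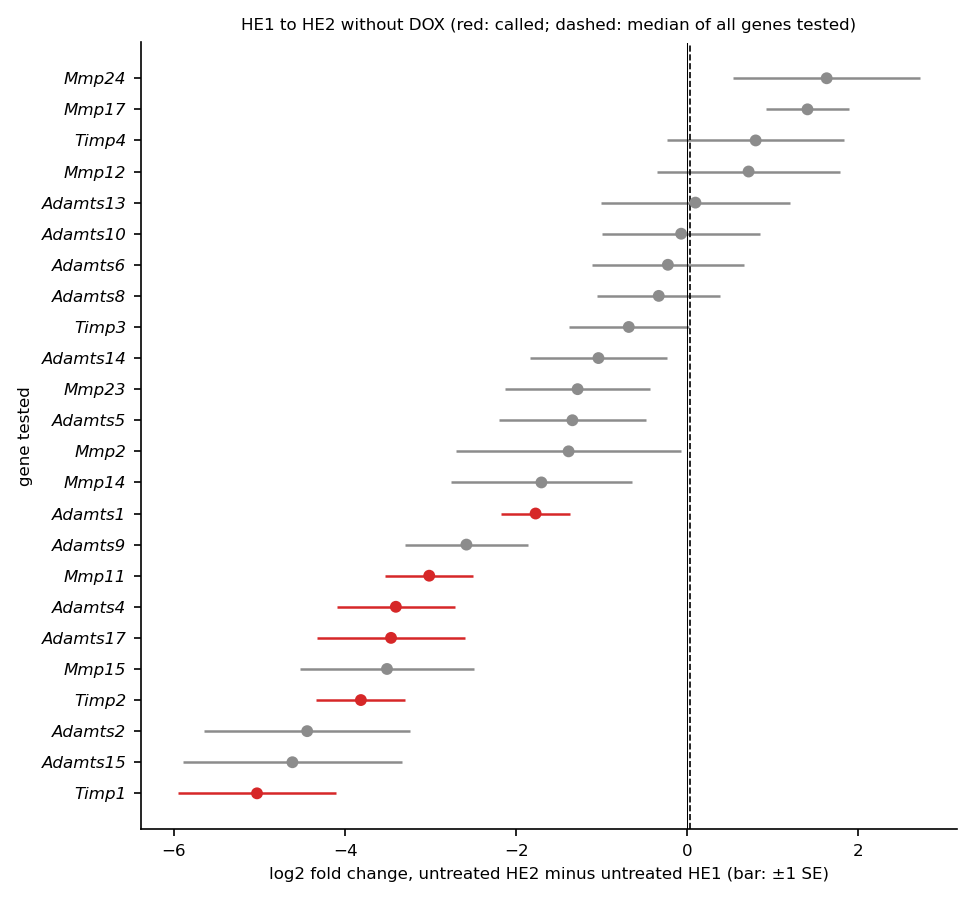
Log2 fold change from untreated HE1 to untreated HE2 cells (x axis, bars ±1 SE from limma, 2 arrays a group) for each of the 24 genes tested (y axis). The 6 called genes are in red, from Timp1 at −5.03 to Adamts1 at −1.77, and the dashed line is the median of all genes tested, 0.04.

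Most of the companion genes tested at this step were not called. Of 24 activators, inhibitors and related proteases tested, 5 fell (Adam19, Bmp1, Lrp1, Pcsk5 and Reck) and 1, the integrin gene Itgb3, rose by 4.97 (adjusted p = 0.00217). The other 18 were not called, and of all genes 2.67% were. RECK is a membrane inhibitor of MMPs and fell by 2.10 (adjusted p = 0.0443), and Pcsk5, a proprotein convertase, fell by 3.13 (adjusted p = 0.00635). Of 13 matrix substrates tested, 5 fell, 0 rose and 8 were not called. Tenascin C (Tnc) fell by 5.77, Col3a1 by 4.37, Col1a2 by 3.61, versican (Vcan) by 2.93 and nidogen (Nid1) by 2.90, with adjusted p-values of 0.000416, 0.0334, 0.00264, 0.00606 and 0.0231.

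Markers of other cells moved at the same step. All 5 smooth muscle markers tested were fitted lower in HE2 cells (median −2.68, 1 called). The summed linear level of the 6 was 256 to 578 times the 75th percentile on the HE1 arrays and 52.6 to 55.8 on the HE2 arrays. Of 7 fibroblast feeder markers, which matter because ESCs are grown on feeder cells, 5 were above background in HE1 cells and 1 in HE2 cells, with summed levels of 1.53 to 13.4 and 0.721 to 0.818. The mesothelial markers, of which 2 of 4 were tested and fitted lower (1 called), summed to 3.91 to 8.55 in HE1 and 0.317 to 0.490 in HE2 cells. The hematopoietic progenitor markers summed to 19.2 to 22.7 in HE1 and 51.3 to 55.4 in HE2 cells. The part of these cells in the falls was not tested. From HE2 to HP cells 0 of 27 genes were called (0.0158% of all genes). Timp2 was higher by 1.31 and Timp3 lower by 1.44, with adjusted p-values of 0.708 and 0.761.

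The neutrophil granule markers, of which 4 of 7 were above background, summed to 30.3 to 31.6 in HE2 cells and 78.3 to 96.0 in HP cells, where Ngp and S100a8 were above it on no array. The higher sum in HP cells was that of Mpo, the myeloperoxidase gene, whose mean level was 4.76 in HE2 and 6.39 in HP cells. The other 3 had lower means in HP cells, at 0.78 and −0.028 for Elane, −1.64 and −2.40 for Camp and 0.62 and 0.56 for Ltf. Mmp8, Mmp9 and Mmp25 are known from neutrophils. None of them was above background on an HP array, with or without DOX.

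The effect of DOX was compared in each population. Limma called 0 genes of the families in each of the 6 populations, whereas it called between 0 and 10 of all genes tested (0.00421% of them at 5 h, 0.021% in SM, 0.0398% in HP, and 0% in d1 BC, HE1 and HE2 cells). At an unadjusted p under 0.05, the test passed 3 of 26 genes at 5 h (5.29% of all genes), 1 of 26 in d1 BC (1.56%), 5 of 29 in SM (2.76%), 0 of 26 in HE1 (1.28%), 2 of 22 in HE2 (9.96%) and 1 of 28 in HP cells (3.77%). The 5 in SM cells were all lower, against 2.05% of all genes, and were Adamts5, Adamts6, Adamts16, Mmp9 and Mmp23. Adamts6 and Mmp9 were above background on 1 of 2 DOX arrays and entered only through untreated cells, and among the 23 genes above background on all arrays of both groups 3 passed (1.36% of all such genes). Adamts6 read −3.29, −2.50 and −2.44 without and −3.00 and −6.71 with DOX. The count was 1 (Adamts16) without SM DOX replicate 2 and 3 to 7 without any other single SM array. All alternative settings tried left 0 genes called in each population.

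In d1 BC, many of the genes were lower with DOX on both arrays. Of 26 tested, 13 had both DOX arrays below both untreated arrays, where 9.86% of all genes did, and in 9 of them the change was at least 2-fold (2.6% of all genes). In 2, Adamts2 and Mmp17, both were above (18.5%). The 9 were Mmp2, Mmp9, Mmp11, Mmp14, Mmp23, Adamts4, Adamts7, Adamts16 and Timp1. Adamts16 was above background on neither DOX array and entered only through the untreated group. Its DOX readings, −4.96 and −5.22, lay above the lowest signal flagged above background on those arrays. Its fall of 2.80-fold is thus the plain difference, of uncertain size, and not a bound. Of the 23 genes above background on all arrays of both groups, 12 were lower without overlap (9.98% of all such genes), 8 of them at least 2-fold (2.07%). The median over the 26 was −0.31 and that of all genes 0.13. No gene of the 13 was called, and the untreated and DOX arrays of a replicate shared a slide.

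Mmp9 went from −1.55 and −1.64 to −3.70 and −3.53, which is −2.02 (SE 0.64, unadjusted p = 0.0055, adjusted p = 1.00). The difference was −2.15 and −1.89 within the 2 slides. Timp1 went from 3.15 and 2.38 to 1.05 and 0.80 (−1.84, SE 0.92), and −2.10 and −1.58 within slides. Mmp2 read 0.18 and 1.14 without and −2.65 and 0.17 with DOX, −1.90 (SE 1.31), so that its 2 DOX arrays differed by more than the groups. Adamts7 (−1.50, SE 0.95) and Mmp14 (−1.24, SE 1.06) were the other falls of at least 2-fold named by rule in this comparison. Adamts5 and Timp3 were also lower without overlap, but by less than 2-fold. Matrix substrates were fitted lower in 12 of 13 genes tested (37.1% of all genes tested were), with a median of −1.14 and 0 called. Mesothelial markers had a median of −1.01 and smooth muscle markers of 0.05. The mesothelial marker Lrrn4 went the other way, with means of 1.98 without and 2.57 with DOX.

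In SM cells, Adamts5 read −2.10, −1.82 and −1.54 without and −3.74 and −4.18 with DOX (−2.14, SE 0.79, adjusted p = 0.996). Adamts16 read −2.82, −1.53 and −2.25 without and −4.24 and −4.30 with DOX (−2.07, SE 0.69, unadjusted p = 0.0077). With Adamts12 (−1.42), Mmp19 (−1.25) and Timp2, these were the 5 of 29 genes whose groups did not overlap, all lower (6.07% of all genes), and 0 were higher (4.49%). Mmp9 and Mmp14, each −1.55, overlapped between groups. Adamts12, Mmp19 and Mmp9 were above background on 1 of 2 DOX arrays, so their size is uncertain, and Adamts12 and Mmp19 entered the test only through untreated SM cells. Among the 23 genes above background on all arrays of both groups, 3 were lower without overlap (5.46% of all such genes), namely Adamts5, Adamts16 and Timp2. Replicates 1 and 2 of both groups shared slides 1 and 2, within which Mmp14 differed by −0.39 and −1.71, and Mmp9 by −0.39 and −2.11. Leaving out SM DOX replicate 2, without regard to slide, turned Mmp14 to 0.29. The median over the 29 genes was −0.52 against 0.09 for all genes. The 3 of 4 markers of mesothelial cells that were tested had a median of −2.41 with DOX (2 fitted lower, 1 of them called, and 1 higher), the sum of the 4 being 23.1 to 57.0 without and 4.67 to 25.7 with it. Erythroid markers had a median of −1.75, from a sum of 67.0 to 538 without and 53.6 to 193 with DOX. Their part in the values was not tested.

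In HE1 cells Mmp23 read −0.49 and −0.90 without and −1.63 and −3.19 with DOX (−1.72, SE 0.84), and Adamts5 was fitted at −1.64 (SE 0.86). Adamts5 was above background on 1 of 2 DOX arrays, and without DOX replicate 2 its difference was −0.58. In 3 of 26 genes the DOX arrays were below the untreated arrays (8.34% of all genes) and in 2 above (8.75%). Among the 21 genes above background on all arrays of both groups, these counts were 2 (7.28%) and 1 (8.48%). The median was −0.16 and that of all genes 0.09, but these were 0.16 and 0.06 with quantile normalization, and both 0.07 with the authors' values.

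In HE2 cells the direction was mixed, with 4 of 22 genes below (14.4% of all genes) and 7 above (20.4%). Among the 14 genes above background on all arrays of both groups, 3 were below (12.1%) and 3 above (19.9%). Adamts4 read −4.88 and −3.83 without and −2.28 and −2.67 with DOX (1.88, SE 0.69, adjusted p = 0.493). Mmp15 (1.73, SE 1.02), Adamts9 (1.19, SE 0.72) and Mmp28 (1.09, SE 0.95) were the other rises of at least 2-fold without overlap. Adamts4, Mmp15 and Mmp28 were above background on 1 of the 2 untreated HE2 arrays. Under normexp correction and under the mean of all probes Mmp28 was lower with DOX instead. Mmp24 went from −0.48 and −2.04 to −4.04 and −3.55 (−2.54, SE 1.09), and Timp4 from −1.34 and −2.75 to −3.65 and −3.49 (−1.53, SE 1.03). In each of them except Adamts9, untreated HE2 replicate 1, the array with the lowest signal, was at the far end of the 4 HE2 arrays. In that population the 4 of 7 fibroblast feeder markers tested had a median of 1.12, while Dcn (−3.00 to −4.99) and Thy1 (−4.08 to −5.18), above background on neither DOX array, had lower means with DOX. The myeloid markers had a median of −1.77 with DOX, and their part was not tested.

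In HP cells 6 of 28 genes were lower without overlap (12.5% of all genes) and 6 higher (25.7%). Among the 20 genes above background on all arrays of both groups, these counts were 4 (11.8%) and 6 (25.7%). The other 2 lower genes, Mmp19 and Adamts15, entered only through untreated cells. Mmp19 read −2.17 and −2.52 without and −4.22 and −3.93 with DOX, where 1 of 2 arrays was above background (−1.73, SE 0.69, adjusted p = 0.997). The difference was −2.05 and −1.41 within slides. Mmp2 (−1.38, SE 1.31), Adamts10 (−1.22, SE 0.92) and Mmp14 (−1.17, SE 1.06) were the other falls of at least 2-fold without overlap. Mmp24 was higher by 1.97 (SE 1.09). Of the myeloid markers tested in HP cells, 6 of 7 were fitted lower with DOX (32% of all genes tested), with a median of −2.55 and 0 called. The summed level was 27.8 to 29.5 without and 21.6 to 59.3 with DOX. The 1 fitted higher was Itgam, with means of 3.45 without and 4.94 with DOX, and of 3.17 in FLK1+ and 5.82 in untreated HE1 cells. The part of myeloid cells in the Mmp19 values was not tested.

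At 5 h Mmp24 and Timp4 were higher by 2.76 (SE 1.09) and 2.47 (SE 1.03), each with an adjusted p of 0.936. Neither gene was above background on untreated replicate 1, where they read −6.95 and −5.93, so these sizes are uncertain. That array lay on a slide of its own. On the slide that held both groups, the differences were 0.39 and 1.21. In 6 of 26 genes the DOX arrays were lower without overlap (16.4%), and in 3 higher (18.6%). Among the 21 genes above background on all arrays of both groups, 6 were lower (17.4%) and 1 higher (15.4%).

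**Figure D4:**
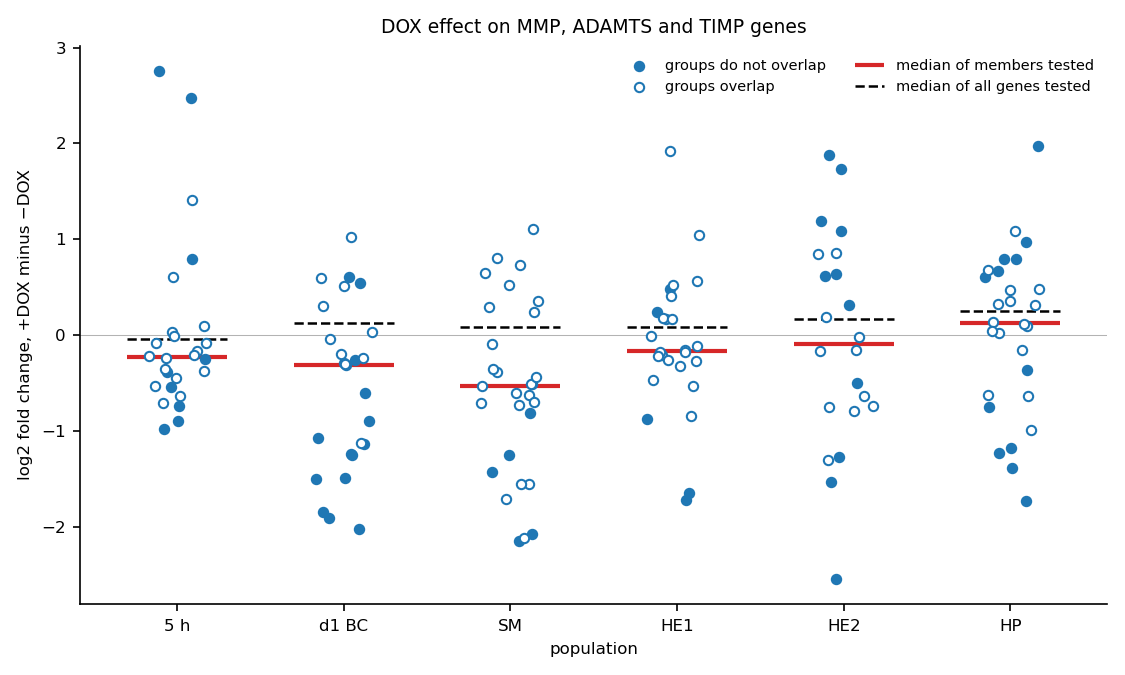
Log2 fold change with DOX (y axis) of each tested MMP, ADAMTS and TIMP gene in 6 populations (x axis), with filled points where DOX and untreated arrays do not overlap. The red lines are medians of the genes tested, from −0.52 in SM to 0.13 in HP cells (−0.07 there with quantile normalization), and the dashed black lines medians of all genes tested.

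Mmp23, a membrane-tethered MMP without a classical hemopexin domain, was singled out after its values were seen. It was one of 5 genes, with Mmp2, Mmp14, Adamts10 and Timp2, that were fitted lower with DOX in all 6 populations, of 17 tested in each of them. Of all genes tested in each, 6.01% were fitted lower in all 6 and 7.74% higher. Its arrays read 0.04 and −0.30 without and −0.62 and −0.72 with DOX at 5 h, and 0.94 and 0.88 against −0.64 and 0.20 in d1 BC. In SM cells they read 1.53, −0.71 and 1.84 against 0.75 and −2.39, the 1 population with an overlap. In HE2 cells they were −2.10 and −1.86 against −2.35 and −2.61, and in HP cells both −1.41 against −1.67 and −2.66.

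Averaged over the 4 sorted populations, 0 of 34 genes were called, against 0.391% of all genes. At an unadjusted p under 0.05, 5 of the 34 were lower (5.58% of all genes) and 0 higher (7.07%). Among the 12 genes above background on all arrays of all 8 groups, 1 was lower, Mmp23 (4.21% of all such genes). The 5 were Mmp19 (−1.23, SE 0.34, adjusted p = 0.153), Adamts5 (−1.30, SE 0.42, adjusted p = 0.247), Mmp23 (−1.17, adjusted p = 0.294), Adamts16 (−1.08, adjusted p = 0.276) and Mmp9 (adjusted p = 0.223). Mmp9 was above background on no HE1, HE2 or HP array, and Mmp9 and Mmp19 entered only through untreated groups. With the slide as a block, Mmp19 and Mmp23 were called, but the share of all genes called with this block is not given. Without HE1 replicate 1 Adamts16 was called, and without SM DOX replicate 1 Mmp9. In the companion list, Plaur fell by 1.82 (SE 0.29, adjusted p = 0.00647), the 1 call among its genes. Whether the effect of DOX differed between the 6 populations was tested with limma's F test, which called 0 of 35 genes and 0 of all 28287. At an unadjusted p under 0.05, 2 of the 35 passed, Adamts18 and Mmp24 (2.09% of all genes). No difference of the DOX effect between populations was thus called.

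**Figure D5:**
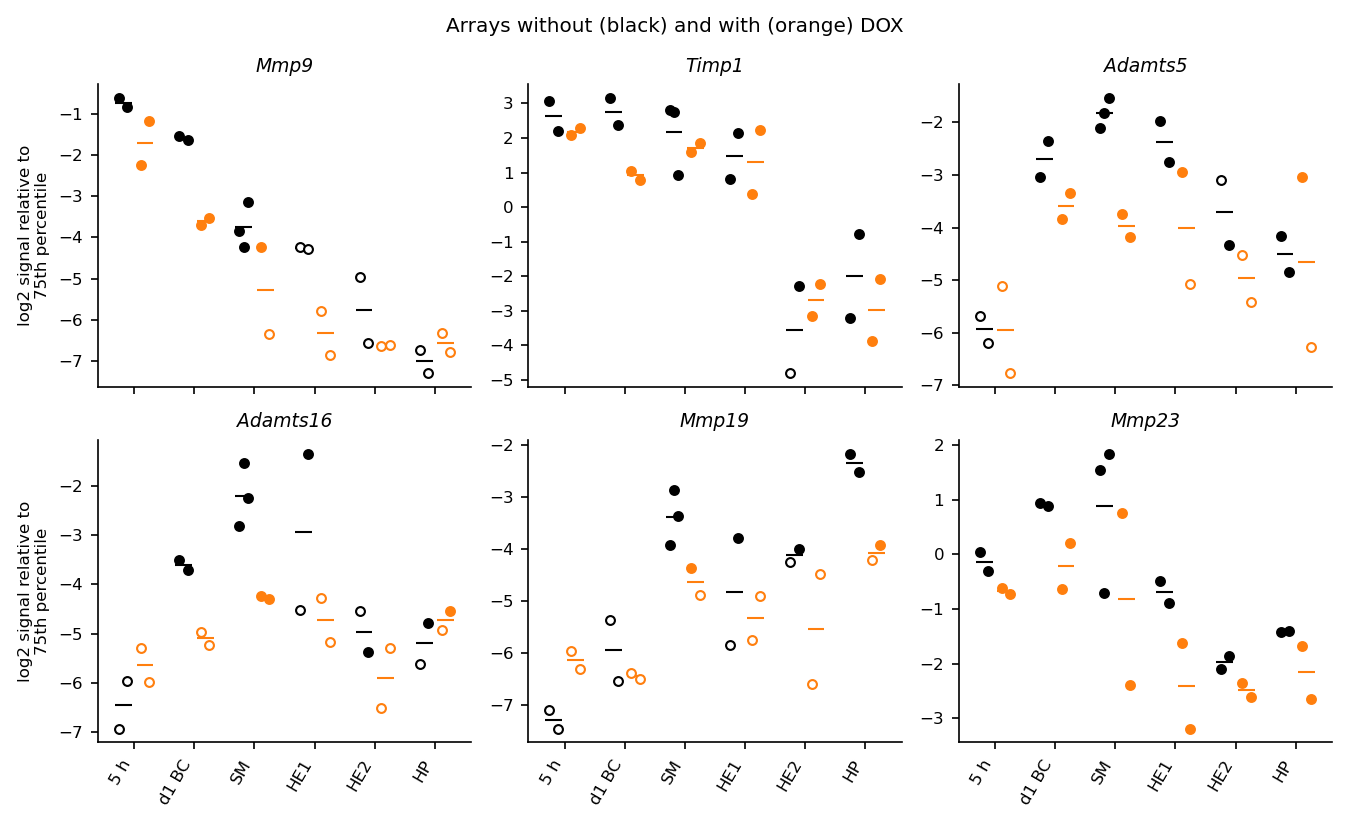
Log2 signal relative to the 75th percentile (y axis) on each array without (black) and with (orange) DOX in 6 populations (x axis), for genes named with DOX. In d1 BC the 2 DOX arrays of Mmp9 read −3.70 and −3.53 against −1.55 and −1.64 without, and in HP cells those of Mmp19 read −4.22 and −3.93 against −2.17 and −2.52.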

How the data were processed

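RNA of 27 samples was measured on one-colour Agilent SurePrint G3 mouse arrays. Per spot, the authors deposited an intensity from Agilent Feature Extraction 10.7.1.1, with the background subtracted, detrended inside each array but left unscaled from array to array. The median signal and median local background they deposited are each an intensity too. Their processed table is on the log2 scale, normalized by the authors over the arrays, and the paper names limma for the array analysis. Each of the 27 columns was closest to its own array. No array was a copy of another (0 identical pairs).

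Of 62976 spots, 55681 probes were not controls and 26582 had a symbol through their accession in a RefSeq table. Spots of a probe were averaged without outlier spots, and no spot was saturated. For each of 37208 genes or transcripts (20145 with a symbol) the probe with the highest mean was kept. Log2 signals had their array's 75th percentile subtracted, so an array with a lower signal is noisier at low levels. Probes were above background by the scanner software's own flag. Where a group was above background on no array, the change is a bound against the lowest signal above background on each array. A reading higher than that signal was used as it stood, so a change may then be the plain difference. Mmp27 had no probe, and Mmp1a and Mmp1b were kept in the companion list.

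Means of the 13 groups were fitted with limma 3.58.1 (lmFit and eBayes, 14 residual and 4.37 prior degrees of freedom) in R 4.3.3. Limma's p-values were adjusted by the Benjamini-Hochberg method over all genes tested. SE denotes a standard error on the log2 scale. The model was tested on simulated data. Tables were read with numpy 2.4.6, pandas 2.3.3 and data.table (version 1.17.8), with Python 3.11.15 and matplotlib 3.10.9 for figures. Promoters are RefSeq's, on build GRCm38.p6, searched for fixed letters.

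The genes and all lists were chosen with earlier results of these data known. Named by rule were called genes (10 at most in a comparison), in each DOX comparison up to 4 rises and 4 falls of at least 2-fold without overlap, and Mmp2, Mmp9, Mmp14, Adamts1, Adamts5, Adamts9, Timp1, Timp2 and Timp3. Other genes were named after their values were seen, to give each class its levels. Alternatives were normexp correction with an offset of 50, quantile and median scaling, the authors' log2 values, other filters on dim probes, the mean of all probes and each probe alone, other thresholds, a replicate block, the slide as a block and within slides, the 2 groups alone, and leaving out each array. An array left alone in its group takes its spread from the remaining groups. One gene of the companion list is not reported here. Sequencing data were not analysed here.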

Additional observations from a re-analysis of the deposited data

How the results depend on the processing

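Each population kept 0 genes called with DOX under all alternatives tried. The 16 counts of calls gave 264 values within 1.5 times the main count and 38 beyond it. Of the named single values, 1052 kept their direction and side of the threshold, 61 lost a call, 15 gained one and 3 turned. From SM to HE1 cells (1 call) there were 2 calls with normexp, 0 with median scaling, 3 with the authors' values, 0 with no filter, 0 with the filter on both groups, 2 with the slide block, 0 with the 2 groups alone and 2 at an adjusted p under 0.1. From HE1 to HE2 cells (6 calls) there were 2 with median scaling (Timp1 and Timp2), 2 with the filter on both groups, 11 with the slide block, 0 with the 2 groups alone and 10 at an adjusted p under 0.1. From 5 h to d1 BC (1 call) there were 0 with no filter, 0 with the filter on both groups, 2 with the 2 groups alone and 3 at an adjusted p under 0.1. From d1 BC to HE1 cells (2 calls) there were 1 with the filter on both groups, 0 with the slide block and 1 with the 2 groups alone. From FLK1+ cells to 5 h (0 calls) there was 1 with the 2 groups alone. The mean DOX effect (0 calls) had 2 with the slide block, and the differing untreated levels (19 calls) had 4 with the filter on both groups, which here means all 7 groups. Leaving out single arrays gave 0 to 1 calls from 5 h to d1 BC, 0 to 2 from d1 BC to HE1, 0 to 2 from SM to HE1, 1 to 7 from HE1 to HE2 (7 without HE1 replicate 2, 1 without HE2 replicate 1), 0 to 1 for the mean DOX effect and 18 to 22 for the untreated levels, and 0 in each of the other comparisons. Timp2 was called from HE1 to HE2 cells without each of the 4 arrays in turn. Mmp28 with DOX in HE2 cells turned to −0.012 with normexp and −0.58 with the mean of all probes. Mmp14 with DOX in SM cells ranged from −3.38 to 0.29 without single arrays. The cause was not tested, apart from the smaller number of arrays or genes that some settings have by construction. With the replicate block there were 0 calls from SM to HE1 cells, 9 from HE1 to HE2 cells and 19 for the untreated levels. Same-numbered arrays with and without DOX deviated together where each such pair shared a slide, with correlations of 0.26 to 0.61 over genes. At 5 h, where the replicate 1 arrays lay on different slides, the correlation was −0.15. The main fit had no term for the number or the slide, so its SEs and p-values with DOX leave out this shared deviation. With the untreated 5 h numbers crossed, chosen after seeing the data, the replicate block gave 0 calls. Median scaling moved the median of all genes by over 0.1 except with DOX in d1 BC and from FLK1+ cells to 5 h, and most from d1 BC to HE1 cells (0.05 to −0.68) and with DOX at 5 h (−0.035 to −0.67). Relative to all genes, the median from HE1 to HE2 cells was −1.40, and −1.65 to −0.82 over the other scalings. From SM to HE1 cells the median of −0.55 became 0.07 with normexp. Signals near background limit all genes that were low in HE2 and HP cells.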

Other observations

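The arrays of replicate 2 of SM, HE1, HE2 and HP cells, with and without DOX, lay on 1 slide. Each was compared with the mean of the other arrays of its group. Against that mean Mmp14 was lower in all 8 groups, by differences of −3.67 to −0.36 with a median of −1.24 on the log2 scale. Adamts5 was also lower in all 8, with differences of −3.23 to −0.0032, although in untreated SM cells it read −1.82 there and −2.10 on replicate 1. Timp1 was higher in all 8, with differences of 0.25 to 2.51 and a median of 1.56, although in untreated SM cells it read 2.75 there and 2.81 on replicate 1. Of 34 genes of the families, 2 were lower and 1 higher in all 8 groups. Among 27272 genes, 3.06% were lower and 21.4% higher in all 8.

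Adamts15 differed by −3.01 in untreated SM, −3.59 in SM with DOX, −3.50 in untreated HE1 and −3.36 in HE1 with DOX, and by 0.05 and 0.65 in HP cells without and with DOX. Adamts2 differed by −3.07, −1.96, −4.60 and −1.55 in the same first 4 groups. Mmp2 differed by −3.40 and −3.21 in SM cells and by 1.46 in untreated HE2 cells. For Mmp14 the difference between the slides in SM cells with DOX, −3.67, was thus larger than the fitted effect of DOX there, −1.55. The cause of these differences was not tested.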
